A study of Gallus gallus with 6 samples.

Results

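Long noncoding RNAs (lncRNAs) are transcripts with no annotated protein-coding frame that are too long to count as small RNAs. The 200 most abundant lncRNA genes of chick wing explants are described here, out of 3599 lncRNA genes and 21062 genes of all kinds with normalized counts. They were chosen by their mean normalized count over the 6 libraries, as the highest among genes annotated lncRNA off chromosomes W and MT. A normalized count is a gene's reads divided by a size factor that puts libraries of different depth on 1 scale. Because those means chose the genes, their levels are a description. The difference between treatments was not itself used in the choice, but the means pool both treatments, so a gene high in 1 treatment alone could enter.

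The explants were pieces from the posterior part of wild-type HH20 chick wing buds, with the overlying ridge, labelled as mesenchyme. They were embedded in growth-factor-reduced Matrigel and cultured for 48 h in serum-containing medium. Of the 6 libraries, 3 were from explants given SU5402 at 5 µM from the start of culture and 3 from explants given DMSO, its solvent. Explants were pooled for each library, and the labels do not state whether libraries of the same number shared embryos. P-values therefore measure the spread between these pools.

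Fibroblast growth factors (Fgfs) from the apical ectodermal ridge at the rim of the limb bud act on Fgf receptors in the mesenchyme below, and SU5402 blocks the kinase of those receptors. Many lncRNA genes lie close to a protein-coding gene, and a divergent pair may start from 1 shared promoter region. Some lncRNAs are known chiefly as hosts whose introns hold small nucleolar RNAs (snoRNAs), which guide chemical modification of other RNAs, or microRNAs (miRNAs), which repress mRNAs.

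Library totals ranged from 25849833 to 44261768 reads on genes, and all libraries of a treatment lay together on the first principal component, which took 67.2% of the variance. Limb mesenchyme was marked by PRRX1 at 17807 ± 704 normalized counts with DMSO and 13528 ± 519 with SU5402 (SD, n = 3), and by TBX5, the forelimb T-box factor, at 13767 ± 261 and 13461 ± 425. PRRX1 was lower with SU5402 (log2 fold change -0.40, limma adjusted p = 0.0083). MSX1, also read as a limb gene, was called lower, from 4105 ± 483 to 1902 ± 715 (-1.16, limma adjusted p = 0.027). TWIST1 did not pass the test (0.13, limma adjusted p = 0.19). MKP3, a phosphatase gene induced by Fgf signalling, was lower with SU5402 (3439 ± 158 with DMSO, 511 ± 59.7 with SU5402; log2 fold change -2.75, limma adjusted p = 0.00018). Marker lists of other cell types moved with the treatment: of the muscle markers 14 of 16 tested were called higher, of the ectoderm markers 5 of 10, of the macrophage markers 4 of 9 and of the red blood cell markers 4 of 6, while 9 of 11 endothelium markers were called lower and 0 of 6 neural crest and glia markers were called by limma, edgeR or DESeq2 (4 had an unadjusted p below 0.05). The summed normalized counts of the lists ran from 2162 to 2586 with DMSO and 8683 to 11654 with SU5402 for muscle, 12947 to 16236 and 28336 to 29633 for ectoderm, 1051 to 1147 and 2052 to 2510 for macrophage, 5190 to 6310 and 15703 to 22980 for red blood cell, 25615 to 26789 and 5163 to 5609 for endothelium, and 809 to 931 and 1193 to 1452 for neural crest and glia. Every listed marker in the tables had more than 3 reads in at least 1 library. Their part in the results below was not tested, and fewer cells of a type cannot be told apart from less RNA per cell in such bulk samples.

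The 200 lncRNAs together took 0.494% to 0.506% of the reads on genes with DMSO and 0.529% to 0.543% with SU5402, ranges that did not overlap. This was not a general rise, as the median log2 fold change of the 200 was 0.01. In normalized counts, another measure than the share of reads, the 200 summed to 169198 to 171125 with DMSO and 173131 to 179146 with SU5402. ENSGALG00000048583 alone, at a log2 fold change of 0.73, made up most of the net difference on that measure. The share of reads also depends on the reads on all other genes, so this gene is not an account of the difference in share. The 200 carried 76.6% to 77.5% of all normalized counts on lncRNA genes with DMSO and 75.2% to 75.9% with SU5402. Counts on all lncRNA genes ran from 218289 to 223277 with DMSO and from 230213 to 237207 with SU5402. The rise was therefore not particular to the 200, whose share of lncRNA counts was lower with SU5402. Abundance was uneven: the 10 highest held 30.8% to 33.3% of the counts on the 200, and the highest had 54.3 times the mean of the lowest. Means exceeded 2000 normalized counts in 16 lncRNAs and 1000 in 45. No library lacked reads on any of them. At the limit of the ranking, ENSGALG00000051795 (rank 199) and ENSGALG00000053206 (rank 200) had means of 211.6 and 211.3, and the first genes left out, ENSGALG00000048627 and ENSGALG00000048488, had 210.6 and 206.3.

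**Figure D1:**
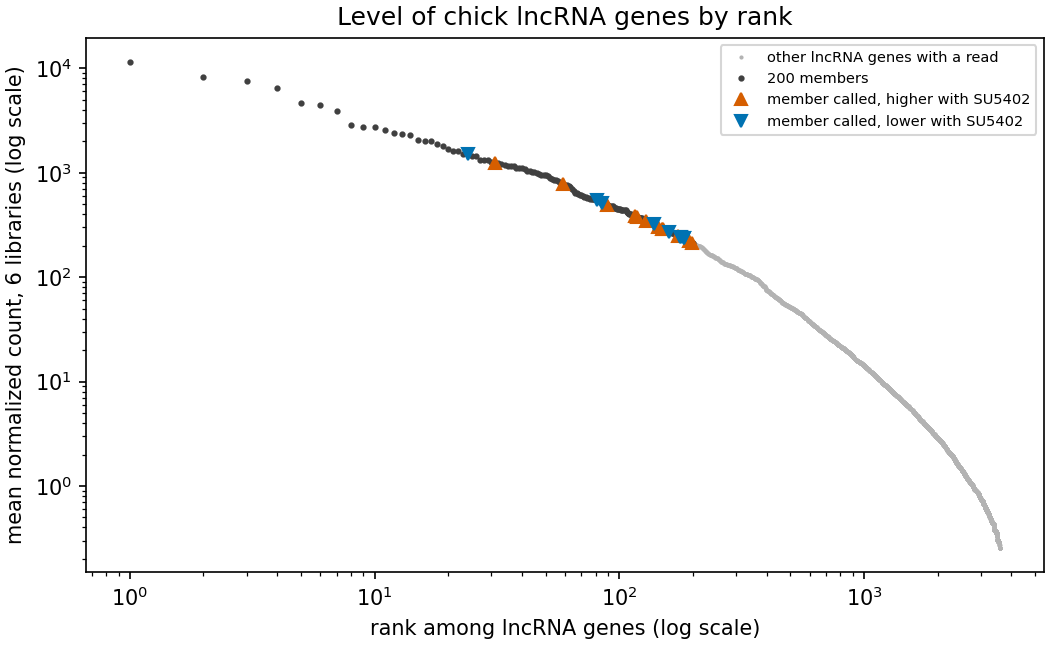
Mean normalized count over the 6 libraries (vertical axis, log scale) against rank among lncRNA genes (horizontal axis, log scale). The 200 lncRNAs described are dark, other lncRNA genes with a read are grey, and triangles mark the 12 that were called higher and the 9 called lower with SU5402. Of the 21, 6 lie in the first 100 ranks and 15 in the second.

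The chromosome positions given here are of build GRCg6a. The most abundant lncRNA, ENSGALG00000053559 (chr5:39086055-39089346, + strand), had 11404, 12676 and 11950 normalized counts with DMSO and 11226, 10592 and 11026 with SU5402. Its libraries did not overlap between treatments, but the log2 fold change of -0.13 ± 0.06 (SE) did not pass the test (limma adjusted p = 0.18). It overlaps ANGEL1 on the opposite strand, and ANGEL1 had a log2 fold change of -0.03.

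The second, ENSGALG00000048583 (chr15:7471662-7474717, + strand), was the highest of the 200 per length, at a mean of 154 FPKM, which divides fragments by gene length and by a library total. Its normalized counts were 6895, 5883 and 5906 with DMSO and 9857, 10521 and 10601 with SU5402. All SU5402 libraries were higher, and it had an adjusted p below 0.05 with limma (log2 fold change 0.73 ± 0.09, adjusted p = 0.0034), short of the 2-fold limit. CRYBB1, a beta-crystallin gene, overlaps it on the opposite strand and moved by a like amount, 0.76 ± 0.11 (adjusted p = 0.0066). The sources used here do not say whether reads were counted by strand, so reads of the overlapping genes cannot be told apart.

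The other 8 of the 10 highest did not pass limma's test at an adjusted p of 0.05. With edgeR and DESeq2 ENSGALG00000047636 did (adjusted p = 0.038 with TMM scaling and 0.030), as did ENSGALG00000053559 with DESeq2 (0.044), and both with limma's intensity trend (0.039 and 0.048). Their log2 fold changes ran from -0.14 for ENSGALG00000049825, which ends 194 bp from the end of ZNF414, to 0.15 for ENSGALG00000054443, on a scaffold outside the chromosomes, and for ENSGALG00000047636, which lies 1686 bp downstream of TTYH3. ENSGALG00000048379 lies 566 bp downstream of SFPQ, the gene of a splicing factor, on its strand. It had 6044, 6569 and 6621 normalized counts with DMSO and 6574, 6882 and 6419 with SU5402, so the treatments overlapped (log2 fold change 0.05). ENSGALG00000053627, 1841 bp downstream of CHP1, had -0.09 ± 0.19 (adjusted p = 0.73), whereas CHP1, a calcineurin-like calcium-binding protein gene, was higher by 0.46 ± 0.06 (adjusted p = 0.0057). ENSGALG00000054443 had the longest exonic length of the 200, at 8731 bp. ENSGALG00000051674, ENSGALG00000049015 and ENSGALG00000048906 had log2 fold changes of 0.01, 0.12 and -0.08.

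None of the 200 carried a gene symbol in the files, and 4 had a description, each "uncharacterized" with a locus number. Their exonic length ran from 278 to 8731 bp with a median of 1775 bp. The median gene span was 4156 bp, against 10845 bp in the 3399 other lncRNA genes. Compared per length, 74 of 199 exceeded their nearest protein-coding gene in mean FPKM, and the median ratio of lncRNA to neighbour was 0.574.

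A nearest protein-coding gene could be assigned to 199 of the 200 by the gap between gene spans. They comprised 194 different neighbours. Head-to-head pairs, which point away from each other, were the most common with 50, followed by 49 lncRNAs on the strand of the neighbour and downstream of it, 45 tail-to-tail pairs, 29 upstream on the same strand and 26 that overlapped the neighbour on the opposite strand. In this order the classes held 25.1%, 24.6%, 22.6%, 14.6% and 13.1% of the 199. They held 23.8%, 26.2%, 16.2%, 21.9% and 11.9% of the 3372 other lncRNA genes placed. None of the 200 overlapped a protein-coding gene on its own strand, and neither did any of the other lncRNA genes. The median gap was 1257 bp, and 12388 bp in the other lncRNA genes, most of which had counts too low to be tested below. In pairs with both genes tested, the medians were closer, at 1119.5 bp and 3340 bp. A gap of at most 10 kb was found for 168 of 199 (84.4%), and for 46.5% of the others. The widest gap, 467281 bp, belonged to ENSGALG00000034684, described below with the rises. TBX2, a T-box repressor gene of the limb margins, is an example of a close neighbour: ENSGALG00000049007 starts 21 bp from it in the opposite direction.

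**Figure D2:**
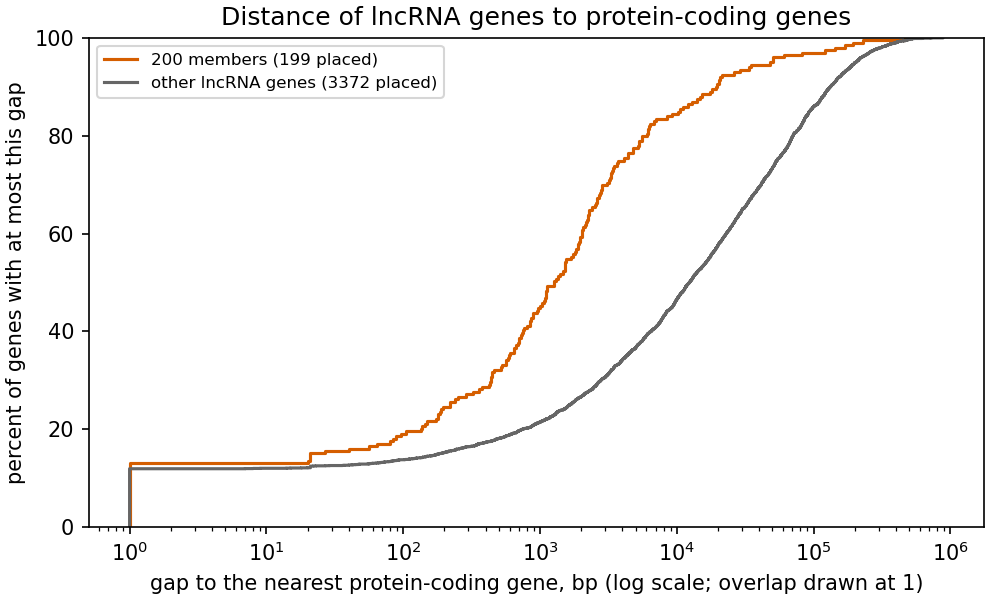
Percent of lncRNA genes (vertical axis) with a gap to the nearest protein-coding gene of at most the value on the horizontal axis (bp, log scale, with overlapping genes drawn at 1). The curve of the 199 placed lncRNAs lies above that of the 3372 others, with medians of 1257 and 12388 bp. Most of the others had counts too low to be tested.

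A difference between treatments was called where the adjusted p was below 0.05, over all 16324 genes tested with limma, and the change was more than 2-fold. All 200 lncRNAs were tested. With SU5402, 12 were called higher and 9 lower, 21 in all or 10.5%, against 10.8% of all genes. Of all genes, 6.26% were called higher and 4.54% lower, so the share of the 200 was near the background. Calls were made for 152 of the 1014 other lncRNA genes tested, and for 7.16% of the 10248 protein-coding genes whose means lay in the range of the 200. By adjusted p alone 63 of the 200 passed (31.5%, against 30.4% of all genes), 31 of them higher and 32 lower, against 14.4% and 16.0% of all genes. The libraries of the treatments did not overlap in 104 of the 200, 52.0% against 49.7%. The median log2 fold change was 0.01 in the 200 and in all genes, and 158 of the 200 changed by less than 1.5-fold.

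Most of the called lncRNAs entered the ranking through the treatment in which they were high. The DMSO mean was below 211.3, the lowest mean of the 200, in 8 of the 12 called higher, and the SU5402 mean was below it in 6 of the 9 called lower. Of the 169 lncRNAs at or above that level in both treatments, 4 were called higher and 3 lower. The counts of called lncRNAs are therefore not read as a property of the 200.

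The median SD between replicates on the log2 scale was 0.132 with DMSO and 0.131 with SU5402 in the 200, at a median level of 450.0 normalized counts. It was 0.083 and 0.091 in the protein-coding genes of that range, whose median level was higher at 1408. In the other lncRNA genes, whose median level was 27.1 normalized counts, it was 0.462 and 0.423.

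**Figure D3:**
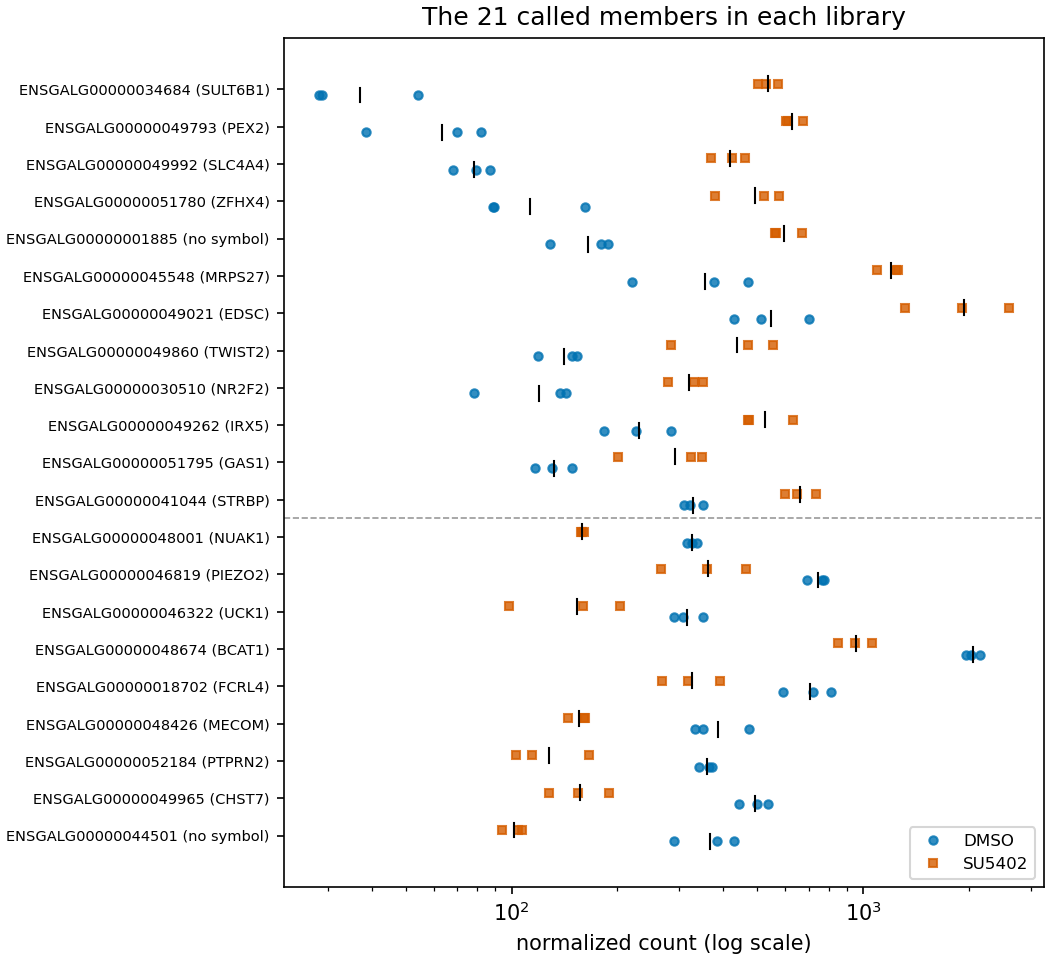
Normalized counts (horizontal axis, log scale) of the 21 called lncRNAs in each of the 3 DMSO (circles) and 3 SU5402 (squares) libraries, with vertical ticks at the means and the nearest protein-coding gene in brackets. The 12 that rose are above the dashed line and the 9 that fell below it, and in all 21 the libraries of the treatments do not overlap.

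The 2 largest rises were in lncRNAs over 100 kb from any annotated protein-coding gene. ENSGALG00000034684 (chr3:33132810-33141334, + strand) had 54.3, 28.3 and 28.9 normalized counts with DMSO and 531, 572 and 504 with SU5402. The SU5402 libraries were all far above the DMSO libraries (log2 fold change 3.88 ± 0.27, adjusted p = 0.00075). It lies between CRIM1 and SULT6B1. SULT6B1, a sulfotransferase gene, was higher by 0.83 ± 0.15 (adjusted p = 0.013) from a low level of 41.7 ± 7.42, and CRIM1, at 576956 bp on the other side, did not pass the test (0.19, adjusted p = 0.12).

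ENSGALG00000049793 (chr2:119678861-119684342, + strand) rose from 70.2, 81.8 and 38.6 to 602, 674 and 610 normalized counts (log2 fold change 3.35 ± 0.29, adjusted p = 0.0014). No DMSO library came near those of SU5402. Its nearest protein-coding gene, PEX2, of peroxisome biogenesis, starts 170886 bp away and had 0.22 ± 0.08 (adjusted p = 0.078). The next gene beyond PEX2 is ZFHX4, a zinc-finger homeobox factor gene, which rose by 1.22 ± 0.08 (adjusted p = 0.00063) to 13265 ± 1013 normalized counts.

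On the far side of ZFHX4, head to head with it at 21503 bp, lies ENSGALG00000051780 (chr2:119267567-119295147, - strand). Its normalized counts were 162, 88.7 and 88.9 with DMSO and 524, 577 and 379 with SU5402 (log2 fold change 2.15 ± 0.30, adjusted p = 0.0056). The lncRNAs on both sides of the ZFHX4 and PEX2 genes were thus higher, as was ZFHX4, while PEX2 did not pass the test.

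ENSGALG00000049992 (chr4:50375137-50376558, - strand) ends 2285 bp from the end of SLC4A4, which encodes a sodium bicarbonate cotransporter. The lncRNA had 79.5, 68.0 and 86.7 normalized counts with DMSO and 460, 369 and 424 with SU5402 (2.41 ± 0.13, adjusted p = 0.00041). SLC4A4 rose alongside it from 164 to 705 (2.11 ± 0.17, adjusted p = 0.0011). ENSGALG00000034684, ENSGALG00000049793 and ENSGALG00000049992 were the 3 whose change also exceeded 2-fold in limma's test against that fold.

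ENSGALG00000001885 (chr19:4324550-4326231, - strand) rose from 188, 180 and 129 to 564, 668 and 560 normalized counts (1.86 ± 0.17, adjusted p = 0.0017). It lies 848 bp downstream of ENSGALG00000046288, a protein-coding gene without a symbol that rose from 15.2 to 91.6 (2.52 ± 0.21, adjusted p = 0.0013).

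ENSGALG00000045548 (chrZ:25268534-25323157, - strand) had 377, 470 and 220 normalized counts with DMSO and 1245, 1095 and 1258 with SU5402 (1.82 ± 0.29, adjusted p = 0.0089). It overlaps MRPS27, a gene of the mitochondrial ribosome, on the opposite strand, and MRPS27 had 0.09 ± 0.10 (adjusted p = 0.56). MAP1B, a microtubule-associated protein gene 1205 bp from the lncRNA, rose from 883 to 2433 normalized counts (adjusted p = 0.013). PTCD2, 1763 bp away on the other side, had 0.18 (adjusted p = 0.44). Of MRPS27, MAP1B and PTCD2, only MAP1B was therefore called.

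ENSGALG00000049021 (chr25:3301785-3303773, - strand) was the most abundant of the lncRNAs called higher. It had 701, 512 and 429 normalized counts with DMSO and 2604, 1315 and 1905 with SU5402 (1.80 ± 0.31, adjusted p = 0.011). The SU5402 libraries were spread widely, yet all exceeded the DMSO libraries. EDSC, the protein-coding gene it overlaps on the opposite strand, was not tested here. Of the genes on its flanks S100A6, a calcium-binding protein gene, rose by 1.49 ± 0.13 (adjusted p = 0.0014), while S100A9 had 0.90 (adjusted p = 0.028), under the 2-fold limit.

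A group of lncRNAs lay beside transcription factor and signalling genes of the limb. Of 178 limb genes listed, 159 were tested, of which 19 were called higher and 48 lower, and 5 were the nearest protein-coding gene of 1 of the 200. ENSGALG00000049860 (chr7:6161464-6166260, - strand) overlaps TWIST2, a basic helix-loop-helix factor gene, on the opposite strand. It rose from 154, 119 and 149 to 284, 469 and 556 normalized counts (1.58 ± 0.27, adjusted p = 0.011), and TWIST2 rose by 1.13 ± 0.12 (adjusted p = 0.0028).

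ENSGALG00000030510 (chr10:16241935-16246117, - strand) is head to head with NR2F2, the gene of a COUP-family nuclear receptor, at 19307 bp. Its values were 138, 143 and 78.2 with DMSO and 330, 351 and 279 with SU5402, and it was called higher (1.46 ± 0.26, adjusted p = 0.013). NR2F2 passed on adjusted p but not on fold (0.90 ± 0.09, adjusted p = 0.0018). ENSGALG00000049262 (chr11:4201016-4204705, + strand) is head to head with IRX5, an Iroquois homeobox gene, at 17493 bp. It rose from 226, 284 and 183 to 471, 634 and 474 normalized counts (1.19 ± 0.20, adjusted p = 0.011). IRX5 rose by 1.30 ± 0.14 (adjusted p = 0.0028), and IRX3, the Iroquois gene on its other side at 342703 bp, by 1.37 (adjusted p = 0.0051).

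ENSGALG00000051795 (chrZ:41075199-41090017, + strand) is head to head with GAS1, which encodes a Hedgehog co-receptor, at 1534 bp. It had 117, 131 and 149 normalized counts with DMSO and 200, 349 and 325 with SU5402 (1.10 ± 0.24, adjusted p = 0.022). GAS1 itself rose by 1.59 ± 0.07 (adjusted p = 0.00026). Leaving out replicate 1 or 2 of DMSO or replicate 2 or 3 of SU5402 ended the call of the lncRNA, whose log2 fold change then lay between 0.95 and 1.10. The fifth of these neighbours, TBX2, had -0.43 ± 0.13 (adjusted p = 0.056), and ENSGALG00000049007, 21 bp from it (chr19:7786929-7793982, + strand), had -0.05 ± 0.10. Its 1641, 1709 and 1832 normalized counts with DMSO overlapped the 1866, 1524 and 1637 with SU5402.

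The last of the 12 called higher, named here after its values were seen, was ENSGALG00000041044, 3456 bp downstream of STRBP, at 1.01 ± 0.10 (adjusted p = 0.002). Its size lay at the 2-fold limit, and the call was lost, at 0.93 to 1.00, when replicate 1 or 2 of DMSO or replicate 3 of SU5402 was left out. STRBP, the gene of an RNA-binding protein, had 0.49 ± 0.06 (adjusted p = 0.0049).

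Most lncRNAs that were called lower lay close to a protein-coding gene that was also lower. ENSGALG00000048674 (chr1:65422008-65425466, + strand) was the most abundant of them. It had 2027, 1964 and 2152 normalized counts with DMSO and 851, 1063 and 951 with SU5402 (log2 fold change -1.11 ± 0.10, adjusted p = 0.0015). It lies 3083 bp downstream of BCAT1, which encodes a branched-chain amino acid transaminase and fell by 1.17 on the log2 scale (adjusted p = 0.0025). SOX5, a factor gene of the cartilage program, is the next gene on the other side at 408308 bp and had -1.26 ± 0.17 (adjusted p = 0.0050).

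The largest fall was that of ENSGALG00000044501 (chr4:90860289-90865394, + strand), from 290, 430 and 383 to 94.0, 104 and 107 normalized counts (-1.83 ± 0.16, adjusted p = 0.0015). ENSGALG00000036547, a protein-coding gene without a symbol on the opposite strand of the same stretch, had -1.06 ± 0.19 (adjusted p = 0.013). ENSGALG00000049965 (chr1:131619162-131621090, + strand) ends 2015 bp from the end of CHST7, a sulfotransferase gene of chondroitin sulfate synthesis. Its values fell from 442, 499 and 535 to 189, 154 and 128 (-1.65 ± 0.16, adjusted p = 0.002), and CHST7 had -1.61 ± 0.17 (adjusted p = 0.0027).

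ENSGALG00000052184 (chr2:8865945-8874629, - strand) starts 138 bp downstream of PTPRN2, a receptor-type phosphatase gene, on its strand. The lncRNA fell from 342, 366 and 373 to 103, 115 and 166 normalized counts (-1.51 ± 0.19, adjusted p = 0.0041), beside -1.60 ± 0.19 for PTPRN2 (adjusted p = 0.0039). ENSGALG00000046819 (chr2:98023751-98033989, - strand) ends 601 bp from the end of PIEZO2, which encodes a mechanically gated ion channel. It fell from 765, 691 and 772 to 463, 266 and 359 (-1.07 ± 0.21, adjusted p = 0.017), and PIEZO2, at 4525 ± 357 with DMSO, fell by 1.22 on the log2 scale (adjusted p = 0.0015). The call of ENSGALG00000046819 was lost when replicate 1 or 3 of DMSO or replicate 2 or 3 of SU5402 was left out, at values from -1.08 to -0.86.

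ENSGALG00000048426 (chr9:20421529-20425774, - strand) overlaps MECOM, a zinc-finger factor gene, on the opposite strand. It fell from 332, 473 and 351 to 144, 161 and 162 normalized counts (-1.29 ± 0.15, adjusted p = 0.0035). MECOM had -0.98 ± 0.06 (adjusted p = 0.00059), just under the 2-fold limit. ENSGALG00000048001, named after its values were seen, was the tightest of the called falls. It had 326, 316 and 337 with DMSO and 158, 160 and 158 with SU5402 (-1.03 ± 0.05, adjusted p = 0.00038). It ends 2533 bp from the end of NUAK1, the gene of an AMPK-related kinase, which had -1.13 ± 0.07 (adjusted p = 0.00058).

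For 2 of the lncRNAs that were called lower, the neighbour did not pass the test. ENSGALG00000018702 (chr25:3764215-3767662, + strand) fell from 810, 591 and 719 to 392, 267 and 317 normalized counts (-1.12 ± 0.18, adjusted p = 0.0098), whereas FCRL4, an Fc receptor-like gene whose end is 1475 bp away, had -0.15 ± 0.17 (adjusted p = 0.54). Without SU5402 replicate 2 the lncRNA had -0.99, under the limit. ENSGALG00000046322 (chr17:6537268-6539119, + strand) starts 20 bp from the start of UCK1, a uridine-cytidine kinase gene. It fell from 290, 307 and 350 to 98.5, 159 and 203 (-1.09 ± 0.28, adjusted p = 0.035), and UCK1 had -0.03 ± 0.06 (adjusted p = 0.76). This was the least stable of the 21 calls: it held without SU5402 replicate 3 and was lost when any other library was left out, at values from -1.15 to -0.80.

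Calls of the lncRNA and of its nearest protein-coding gene were then read together. Both were tested in 184 pairs. The neighbour was called, in either direction, in 17 of them (9.24%). In the 20 pairs whose lncRNA was called, the neighbour was called in the same direction in 12 (60.0%) and in the opposite direction in 0. The corresponding share was 26.3% for the 137 called among other lncRNA genes, whose neighbours were called in 12.5% of 939 pairs, and 14.5% for the 1282 called protein-coding genes, with neighbours called in 8.26% of 12866 pairs. Over all pairs, 6.52% of those of the 200 were both called in 1 direction, 3.83% of those of other lncRNA genes and 1.45% of those of protein-coding genes. These shares are a description and were not tested against each other. Most of the called lncRNAs entered the ranking through the treatment in which they were high. The 60.0% is therefore not read as a property of the 200. Members of a pair were read in the same libraries. With the neighbour set by the distance between 5-prime ends instead, the count of pairs was 8.

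**Figure D4:**
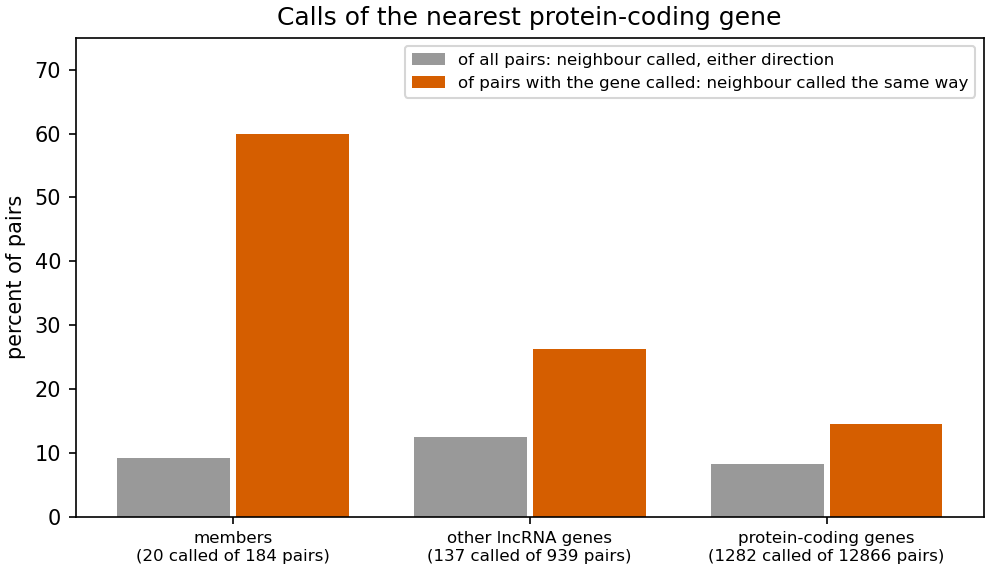
Percent of pairs (vertical axis, from 0) in which the nearest protein-coding gene was called, for the 200 lncRNAs, other lncRNA genes and protein-coding genes. Grey bars are of all tested pairs (9.24%, 12.5% and 8.26%). Orange bars are of the pairs whose own gene was called, with the neighbour called in the same direction (60.0%, 26.3% and 14.5%). Most called lncRNAs of the 200 entered the ranking through the treatment in which they were high.

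Across the 184 pairs the log2 fold changes of lncRNA and neighbour had a Pearson r of 0.52 and a Spearman rho of 0.46. This correlation is across genes, which are not independent replicates and share all 6 libraries. By position, Pearson r was 0.79 in the 24 pairs that overlap on opposite strands, where strand counting is not known, 0.66 in the 48 downstream of the neighbour, 0.54 in the 43 head to head, 0.50 in the 26 upstream and 0.45 in the 43 tail to tail. Spearman rho gave another order of the classes, at 0.73, 0.40, 0.28, 0.56 and 0.39. Among the 26 lncRNAs upstream of a neighbour on its strand that were tested as pairs, 0 were called by limma, edgeR or DESeq2. Of all genes, 10.8% were called by limma. An unadjusted p below 0.05 was found in 7 of the 26, against 42.7% of all genes. In the same position limma called 27 of 184 other lncRNA genes and 302 of 2525 protein-coding genes. This class was singled out for its count of 0, and the difference from other genes was not tested. For gaps of at most 10 kb r was 0.66 over 159 pairs, and over wider gaps 0.23 over 25. The wider gaps include ENSGALG00000034684 and ENSGALG00000049793. Spearman rho was 0.50 and 0.33. By the same split rho was 0.35 and 0.36 for other lncRNA genes, and 0.20 and 0.19 for protein-coding genes. Without a split, Pearson r was 0.41 across pairs of other lncRNA genes (939 pairs), and 0.20 across pairs of protein-coding genes (12866).

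In 35 pairs both genes had an adjusted p below 0.05, and 31 of these moved in the same direction (88.6%). The same share was 83.1% in 89 such pairs of other lncRNA genes and 70.1% in 1372 of protein-coding genes. These shares were not tested against each other. The 4 of the 35 that moved apart were named after their values were seen. All were lncRNAs that were higher beside a gene that was lower, and none passed the 2-fold limit. ENSGALG00000031398 had 415, 358 and 391 normalized counts with DMSO and 693, 731 and 736 with SU5402 (0.89 ± 0.08, adjusted p = 0.0013), and ends 1800 bp from the end of IGFBP2, an insulin-like growth factor binding protein gene that had -0.44 ± 0.05 (adjusted p = 0.0036). ENSGALG00000050107, 228438 bp downstream of the Eph receptor gene EPHA4, had 0.87 ± 0.13 (adjusted p = 0.0081) and EPHA4 -0.52 ± 0.09 (adjusted p = 0.013). ENSGALG00000052525 and CCNL1, a cyclin gene, were 0.27 and -0.50, and ENSGALG00000054330 and NEK2, a mitotic kinase gene, 0.46 and -0.29.

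Small RNA genes lay on the same strand within the span of 9 of the 200, with 10 snoRNA genes in 6 of them and 5 miRNA genes in 3. Of these 9 hosts 0 were called by limma, edgeR or DESeq2, against 10.8% of all genes called by limma. With limma 5 had an unadjusted and an adjusted p below 0.05, against 42.7% and 30.4% of all genes. Again 9 genes are too few to read a share from. ENSGALG00000052055 (chr3:76862835-76869945, + strand), rank 11, holds a pair of SNORD50 genes upstream of SYNCRIP. It had 2990, 3092 and 2974 normalized counts with DMSO and 2019, 1959 and 2192 with SU5402. The SU5402 libraries were all lower (log2 fold change -0.55 ± 0.07, adjusted p = 0.0035), and SYNCRIP, an RNA-binding protein gene, had -0.08.

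ENSGALG00000053249, which holds SNORD65 and SNORD49, had -0.34 ± 0.08 (adjusted p = 0.029), and ENSGALG00000041778, with a pair of RF00213 snoRNA genes, -0.44 ± 0.11 (adjusted p = 0.034). ENSGALG00000054143, host of an SNORA73 gene, was higher by 0.48 ± 0.09 (adjusted p = 0.013). ENSGALG00000047410, with SNORD22, and ENSGALG00000046953, with SNORA13, did not pass (-0.19 and -0.60, adjusted p = 0.18 and 0.17). By adjusted p 3 of the 6 snoRNA hosts were lower and 1 higher, against 16.0% and 14.4% of all genes, and 6 genes are too few to read a share from.

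The miRNA genes of the miR-125 family lay in separate hosts. ENSGALG00000040001 (chr1:100328305-100430000, + strand) spans gga-mir-99a, let-7c and gga-mir-125b-2. It had 260, 239 and 204 normalized counts with DMSO and 367, 376 and 350 with SU5402, without overlap (0.64 ± 0.10, adjusted p = 0.0093). ENSGALG00000006584 (chr24:3388666-3396866, + strand), over gga-mir-125b-1, had 1776, 1865 and 1946 and then 2034, 1962 and 2368, and did not pass (0.18 ± 0.09, adjusted p = 0.19). ENSGALG00000052658, over gga-mir-6572 beside AGO2, had -0.14 ± 0.15 (adjusted p = 0.52). The libraries were made from poly-A RNA, and these values are of the host genes, not of the mature miRNAs.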

How the data were processed

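RNA of HH20 chick limb bud explants was sequenced from poly-A-selected libraries. Per the submitters' processing notes and the study's methods, the authors mapped reads to GRCg6a with HISAT2 (2.0.5), counted them on genes with featureCounts (1.5.0-p3) and normalized with DESeq2 (1.20.0). The deposited signal values are gene counts divided by a size factor per library. The authors also deposited FPKM values, used here for levels per length. Columns of fold changes and p-values from the authors' own comparison were in the deposited tables and were not used. All values (100% in each library, tolerance 0.01) were whole multiples of 1 read, and these reads were used in the edgeR and DESeq2 alternatives.

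The deposited normalized counts, as log2(value + 1), were compared with limma (3.58.1, R 4.3.3) without trend or block, over 16324 genes with at least 10 in at least 3 of 6 libraries. Fold changes are on that scale, which understates changes of low genes. P-values were adjusted by Benjamini-Hochberg over all genes tested. The limma, edgeR and DESeq2 fits were checked on simulated counts. The ranking, neighbour placement and pair counts were not checked in that way. The lncRNAs and lists were chosen with earlier results of these data known. Named were the 10 most abundant lncRNAs, the 8 largest rises and 8 largest falls called without overlap between treatments, hosts of small RNAs on their strand (up to 10), those whose nearest protein-coding gene was on the limb list (up to 12), and the 2 lncRNAs on each side of rank 200. The nearest protein-coding gene of a named lncRNA could be named with it. Other lncRNAs and other flanking genes, among them ZFHX4, MAP1B, SOX5, IRX3 and S100A6, were named after their values were seen. Flanks that did not pass the test were mostly left out, among them NAPG (log2 fold change 0.09), ASB1 (-0.06), HDAC4 (-0.19) and MCTP2 (0.24). Flanks that passed on adjusted p but not on fold were also mostly left out, though S100A9 was named. Of those left out, RABGAP1 (-0.27) and ENSGALG00000026311 (0.39) moved against their lncRNAs. DAPK1 (0.40), RAPGEF1 (-0.27) and ENSGALG00000009409 (-0.40) moved with theirs. Alternatives were a pseudocount of 0.5, edgeR (4.0.16) with TMM and RLE, DESeq2 (1.42.0), no filter or a filter of 50, a trend, limma's test against 2-fold, a replicate block, each library left out, rankings by FPKM and of 100 or 400 lncRNAs, and other neighbour rules. The gene annotation in the tables of both kinds gave positions and small RNA genes. Of the 200, 26 overlap a protein-coding gene and 18 another noncoding or unclassed gene, and their counts are uncertain.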

Additional observations from a re-analysis of the deposited data

How the results depend on the processing

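The count of 21 called lncRNAs stayed between 20 and 22 with a pseudocount of 0.5, edgeR with TMM or RLE scaling, DESeq2, no filter, a filter of 50 or an intensity trend, and was 20 with the 200 highest by FPKM, of which 161 were shared. Leaving out each library in turn gave 17 to 21, with 10 to 12 higher and 6 to 9 lower, 10 to 12 pairs called in 1 direction with the neighbour, and 1437 to 1636 of all genes called. Limma's test against 2-fold, which asks for evidence that the change exceeds that fold, gave 3 lncRNAs (3 higher and 0 lower, with an unadjusted p below 0.05 for 8 and 3; DESeq2 and edgeR, without that test, called 9 lower), 454 of all genes and 1 pair. The first 100 lncRNAs gave 6 calls (3 higher and 3 lower) and 2 pairs, and the first 400 gave 43 (26 higher and 17 lower). Among all genes called, 173 were lncRNA genes. Without the 26 that overlap a protein-coding gene 16 calls and 10 pairs were left. No called lncRNA changed its direction. Leaving out a library could not change it, as the libraries of the treatments did not overlap in any called lncRNA. Of the named ones that were not called, ENSGALG00000053627 went from -0.09 to 0.11 without SU5402 replicate 3, ENSGALG00000051674 from 0.01 to -0.01 without DMSO replicate 3, SU5402 replicate 1 or SU5402 replicate 3, and ENSGALG00000049007 from -0.05 to 0.02 without SU5402 replicate 2.

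Replicate numbers were shared by the treatments. The deviations of same-numbered libraries from their treatment means correlated at 0.039, 0.003 and 0.057. Those of differently numbered libraries correlated at -0.067 to 0.029. With 3 libraries per treatment, these values cannot tell whether libraries of the same number shared embryos or a batch. With the number as a replicate block 21 lncRNAs (the same 21 genes), 12 pairs and 1555 of all genes were called.

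With 3 libraries per treatment, 5 of the 21 calls were lost in at least 1 of the fits that left out a library. Ranking without 1 library kept 195 to 198 of the 200.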

Other observations

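ENSGALG00000048880 (rank 158, chromosome 16) entered the ranking through 1 library. It had 1379 normalized counts in SU5402 replicate 1, which was 84.3% of its summed counts, and 25.2 to 70.7 in the other 5 libraries. Its mean without that library was 51.5, and it did not pass the test (log2 fold change 1.56 ± 1.45, limma adjusted p = 0.46). ENSGALG00000051419 (rank 74, chromosome Z) was the next most variable with SU5402, at 842, 193 and 478 normalized counts.

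In 5 pairs the neighbour was called and the lncRNA was not. ATP12A, a proton pump gene, rose by 3.54 ± 0.32 on the log2 scale (adjusted p = 0.0016), while ENSGALG00000054404, whose end is 15209 bp away, had -0.37 ± 0.24. TNNI2, a fast skeletal muscle troponin gene, rose by 1.88 ± 0.20 (adjusted p = 0.0027), beside 0.26 ± 0.09 for ENSGALG00000051917, which lies 2772 bp upstream of it on its strand. TRPV2, a cation channel gene, rose by 1.78 ± 0.17 (adjusted p = 0.0018) and ENSGALG00000047735 downstream of it had 0.16 ± 0.15. ENSGALG00000045684, a protein-coding gene without a symbol, had -3.02 ± 0.10 (adjusted p = 0.00014) and ENSGALG00000052514 -0.58 ± 0.25 (adjusted p = 0.14). The fifth pair differed only in fold: SSTR2, a somatostatin receptor gene, had -1.29 ± 0.16 and ENSGALG00000041693 -0.98 ± 0.11 (adjusted p = 0.0027). These pairs were chosen after their values were seen.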
